A study of Mus musculus with 8 samples.

Results

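NF-kB feedback regulators and TNF-induced genes were followed in cultured endothelium (vessel-lining cells) of mouse liver. The set held 9 genes, picked by symbol and matched to the table through their Ensembl identifiers, of 52636 genes in the table. They were Tnfaip3, Tnip1, Tnip3, Cyld, Birc3, Ripk2, Zc3h12a, Tnfaip2 and Tnfaip8, and all 9 passed the filter on low counts. The 4 groups, of 2 libraries each, were dKO cells with IL1B and TNFA, dKO cells without them, WT cells with IL1B and TNFA, and WT cells without them. The labels do not spell out dKO, and the study's design text names induced deletion of Erg, Fli1 or both, which encode ETS transcription factors. Deletion was induced for 48 hours with the tamoxifen derivative 4-OHT, and culture lasted 7 days up to the treatment. The labels give the 48 hours of 4-OHT for the WT libraries as well as for the dKO ones. The 2 inflammatory cytokines were added 16 hours before lysis. The labels place the 4-OHT in the culture medium in one field and in mice in another, and neither the Cre driver nor the age of the mice is given in the sources used here. Live cells had been sorted for CD31 and VE-cadherin on their surface and for lack of CD45. Polyadenylated RNA was sequenced, and library totals ran from 23009062 to 26944030 counts. Whether a group's 2 libraries are of different mice or dishes is not stated, so a p-value here measures only how far these samples spread, which may be technical. Levels are given as CPM, counts scaled by the TMM-corrected library size. Tests are edgeR quasi-likelihood tests, their p-values adjusted by the Benjamini-Hochberg method over all 15698 tested genes, and a gene is said to have risen or fallen where this was under 0.05.

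When TNF or IL-1 binds its receptor, scaffolds of ubiquitin chains gather kinases that release the NF-kB transcription factors into the nucleus. NF-kB then switches on inflammatory genes and, among them, genes whose products shut the signal down again. These include A20, encoded by Tnfaip3, which edits ubiquitin chains, the ABIN proteins that bind such chains and guide A20, and Regnase-1, encoded by Zc3h12a, which cuts inflammatory mRNAs. In endothelium this feedback limits how long adhesion molecules and chemokines are made.

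The deleted genes checked the labels only in part. In the dKO libraries Erg stood between 34.7 and 91.3 CPM and Fli1 between 12.4 and 62.5 CPM, against 186 to 208 CPM and 91.5 to 177 CPM in the WT libraries. None of the 4 tests of dKO against WT passed (adjusted p from 0.0538 to 0.0864), although all 4 did in DESeq2. Counts outside a deleted part can remain, but the source of the remaining counts was not tested. The dKO replicate 2 libraries stood higher than dKO replicate 1 for both genes, with and without cytokines. The 10 endothelial markers summed to between 1469 and 3004 CPM in the dKO libraries and to between 5109 and 7412 CPM in the WT libraries, and 9 or 10 of the 10 were at 1 CPM or more in each library. The 11 markers of stellate cells, pericytes and fibroblasts summed to between 12906 and 17510 CPM in dKO and to between 9191 and 10809 CPM in WT. Most of that sum was Dcn, which hid larger differences. Of the 9 of these markers that were tested, Pdgfra, Pdgfrb, Col1a1 and Lum were higher in dKO under both treatments and 0 were lower. Pdgfra averaged 895 ± 395 CPM in dKO with cytokines, 774 ± 225 CPM in dKO without, 28.8 ± 4.83 CPM in WT with cytokines and 2.87 ± 1.14 CPM in WT without (SD, n = 2 each). Without cytokines the fold of dKO over WT was 268 for Pdgfra, 22.6 for Col1a1, 16.05 for Pdgfrb and 6.13 for Lum, and with cytokines it was 31.1, 15.7, 2.18 and 7.39 in the same order. With cytokines in WT, Pdgfra rose 9.99-fold and Pdgfrb 6.60-fold, and 0 of the 9 changed in dKO. Lrat and Des, which mark stellate cells, were under 1 CPM in every library. The 9 leukocyte markers summed to 10.1 CPM or less and the 6 hepatocyte markers to 0.0909 CPM or less in every library, with Ptprc, which encodes CD45, at 0 in 7 of the 8. The 7 markers of cholangiocytes and mesothelium summed to between 18.4 and 19.999 CPM in dKO and to between 1.11 and 3.07 CPM in WT. In dKO, Sox9, Krt19 and Wt1 made up most of that sum. Epcam, Krt7, Msln and Upk3b averaged under 1 CPM in every group. Only 3 of the 7 were tested, and under each treatment 1 was higher in dKO. The part of these marker shifts in the differences between genotypes and treatments below was not tested. In such bulk samples, fewer cells of a type and less RNA per cell cannot be told apart.

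The A20 gene and its ubiquitin-binding partners are given first, with promoter sequence that holds the NF-kB consensus motif. RefSeq windows on GRCm38.p6, running from 250 bases before to 50 bases after a transcription start site, were matched by symbol to 7 of the 9 genes. Ripk2 and Tnfaip8 had no window, so their promoters were not searched. The consensus, searched on both strands, was found in a window of 4 of the 7, which were Tnfaip3, Tnip1, Tnip3 and Cyld, and in 4.51% of all 32851 windows of this length. The letters GGAATTTCC, a close variant, were found beside it in Tnfaip3 and in 0.317% of all windows. The ETS motif CCGGAAGT was in none of the windows of the 7 genes, and in 3.89% of all windows. These matches are letters only and say nothing of binding. Each line below is 30 bases, 5′ to 3′ on the gene's strand, with the matched letters in capitals, so that the palindromic site of Tnip1 and the paired sites of Tnfaip3 can be compared with the single one of Cyld.
Tnfaip3, chr10:19015409-19015438, minus strand: gactGGAATTTCCatcGGAAATCCCCctgt
Tnfaip3, chr10:19015516-19015545, minus strand: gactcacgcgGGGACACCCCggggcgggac
Tnip1, chr11:54962978-54963007, minus strand: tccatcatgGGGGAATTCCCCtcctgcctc
Tnip3, chr6:65590334-65590363, plus strand: gagacatcctGGGAAATCCCagttacatgg
Cyld, chr8:88696863-88696892, plus strand: ttgaccgagcGGAAAGTCCCttcagccagc
In the first line the consensus is on the opposite strand, at -12 to -3 from the start site, and GGAATTTCC is at -24 to -16. In Tnip1, 4 overlapping matches, 2 on each strand, fill the capitals, and in Tnip3 the same 10 bases match on both strands. The Tnip3 window belongs to a start site inside the longer gene of the GENCODE annotation. So does the Tnfaip3 window with matches, whose start site is 19015410, so both Tnfaip3 lines lie inside the annotated gene. Another Tnfaip3 window, with its start site at 19011963, had 0 matches.

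Tnfaip3 (ENSMUSG00000019850, GRCm38 chromosome 10, 19000910 to 19015657, minus strand) was induced in both genotypes. It stood at 665 and 416 CPM in replicates 1 and 2 of dKO cells with cytokines, at 91.6 and 65.5 CPM in dKO cells without, at 928 and 675 CPM in WT cells with cytokines and at 53.9 and 46.4 CPM in WT cells without. All 4 cytokine-treated libraries lay far above all 4 untreated ones, and the highest dKO library with cytokines lay just under the lowest WT one. Cytokines raised it 6.89-fold in dKO (log2 fold change 2.78, SE 0.30, adjusted p = 0.0105) and 16.0-fold in WT (log2 fold change 4.00, SE 0.32, adjusted p = 0.00223). Between the genotypes the sign turned with the treatment. The log2 fold change of dKO over WT was 0.65 without cytokines (SE 0.29, adjusted p = 0.144) and -0.57 with them (SE 0.28, adjusted p = 0.163), and neither passed in this fit without a replicate block.

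Tnip1 (ENSMUSG00000020400, chromosome 11, 54910785 to 54962917, minus strand) encodes ABIN1, which binds ubiquitin chains and brings A20 to its targets. Its levels were 986 and 1198 CPM in dKO with cytokines, 199.8 and 387 CPM in dKO without, 1562 and 1537 CPM in WT with cytokines and 440.5 and 516 CPM in WT without. Every dKO library was below every WT library of the same treatment, and the 2 untreated dKO libraries were far apart. The rise with cytokines was 3.72-fold in dKO (adjusted p = 0.0253) and 3.24-fold in WT (adjusted p = 0.016). In dKO over WT the log2 fold change was -0.70 without cytokines (SE 0.30, adjusted p = 0.131). With cytokines it was -0.50 (SE 0.30, adjusted p = 0.225). Over the 8 refits that each left out 1 library, the first ran from -1.26, without untreated dKO replicate 2, to -0.31. The second ran from -0.64 to -0.38.

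Tnip3 (ENSMUSG00000044162, chromosome 6, 65525313 to 65634040, plus strand) encodes ABIN3, another member of that protein family, and was the rarest transcript of the 9. It had 26 and 76 counts in dKO with cytokines, 2 and 4 in dKO without, 83 and 127 in WT with cytokines and 4 and 3 in WT without. The untreated libraries of the genotypes overlapped, and both dKO libraries with cytokines lay below both WT ones. Tnip3 passed the filter on low counts through its treated libraries, and was dropped when the untreated libraries alone were fitted. The tests of its rise are therefore a description. With cytokines it rose 16.995-fold in dKO (adjusted p = 0.0255) and 33.6-fold in WT (adjusted p = 0.00626). From the summed counts, 102 against 6 in dKO made 17.7 times as many (95% interval 7.85 to 49.3), and 210 against 7 in WT made 35.4 times as many (95% interval 16.9 to 89.0). These exact Clopper-Pearson intervals cover counting error only, since summing the libraries of a group leaves out the spread between them. Even that error may be understated, because the reads carry no molecular identifiers and may be copies of the same molecule. The log2 fold change of dKO over WT with cytokines was -0.93 (SE 0.51, adjusted p = 0.197). It ran from -1.86 to -0.37 over the 8 refits that each left out 1 library.

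Cyld (ENSMUSG00000036712, chromosome 8, 88697028 to 88751945, plus strand) encodes a deubiquitinase that takes signalling chains apart, and it passed none of the 5 tests. Levels were 90.4 and 65.2 CPM in dKO with cytokines, 67.8 and 60.3 CPM in dKO without, 67.3 and 64.4 CPM in WT with cytokines and 64.0 and 59.7 CPM in WT without. Dropping dKO replicate 1 with cytokines left all levels between 59.7 and 67.8 CPM. Its log2 fold change with cytokines was 0.28 (SE 0.16, adjusted p = 0.351) in dKO and 0.091 (SE 0.16, adjusted p = 0.74) in WT. In dKO over WT with cytokines it was 0.24 (SE 0.16, adjusted p = 0.271). Over the 8 refits that each left out 1 library, that value ran from -0.021, without treated dKO replicate 1, to 0.46. The highest library was 1.51 times the lowest, against 55.8 times for Tnip3 and 48.7 times for Tnfaip2.

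**Figure D1:**
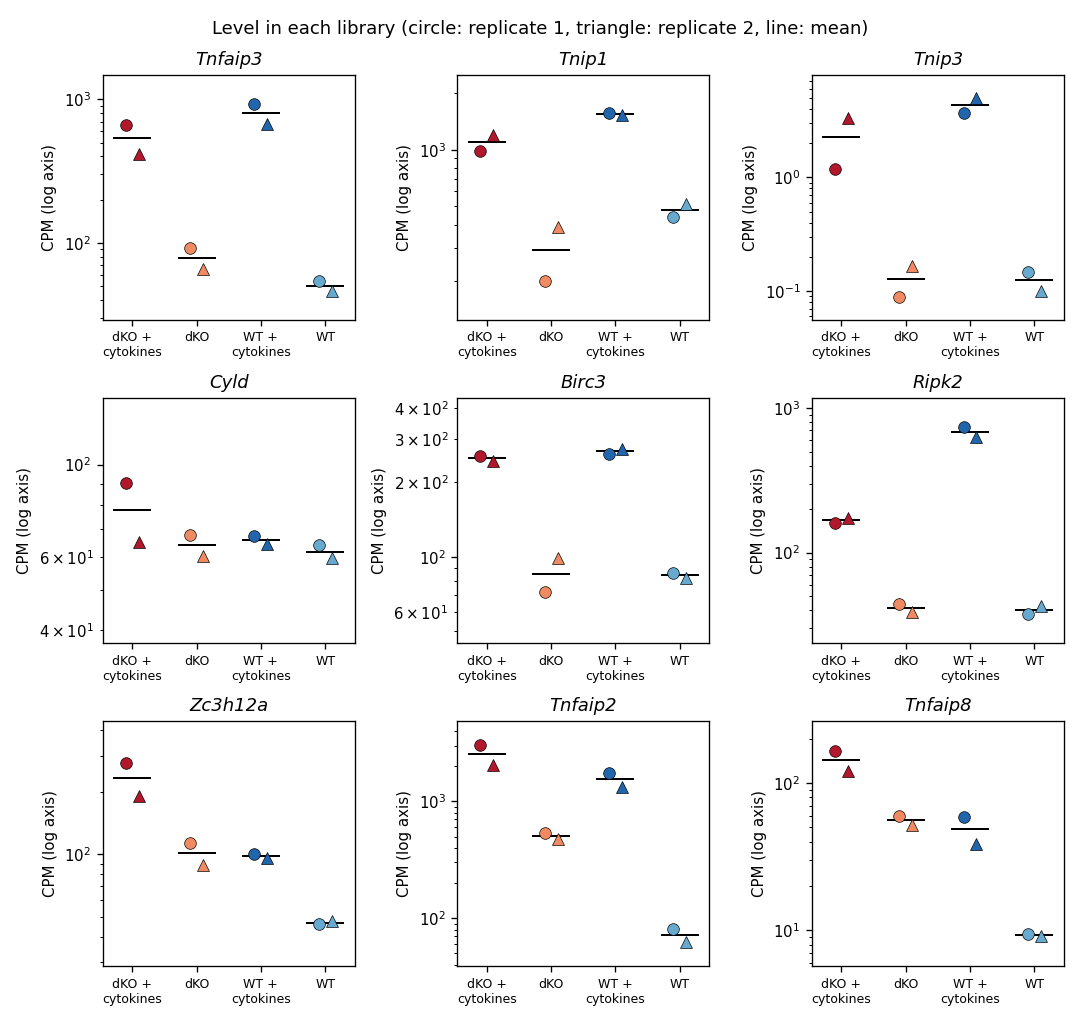
Level of each of the 9 genes in each library, in CPM on a log axis, for dKO and WT cells with and without cytokines; circles are replicate 1, triangles replicate 2 and lines group means. Treated libraries lie above untreated ones of their genotype for every gene but Cyld in dKO, Ripk2 is far lower in treated dKO than in treated WT cells, and untreated dKO cells have more Tnfaip2, Tnfaip8 and Zc3h12a than untreated WT cells.

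Of the genes that carry the signal near the receptor, Birc3 (ENSMUSG00000032000, chromosome 9, 7848699 to 7873186, minus strand) encodes the ubiquitin ligase cIAP2. It was measured at 256 and 244 CPM in dKO with cytokines, 71.8 and 98.7 CPM in dKO without, 259 and 274 CPM in WT with cytokines and 86.3 and 82.0 CPM in WT without. The genotypes overlapped without cytokines, and with them both dKO libraries lay just below both WT ones. Cytokines raised it 2.93-fold in dKO (log2 fold change 1.55, SE 0.16, adjusted p = 0.0074) and 3.17-fold in WT (log2 fold change 1.66, SE 0.16, adjusted p = 0.00279). The log2 fold change of dKO over WT was 0.019 without cytokines (SE 0.15, adjusted p = 0.939). With them it was -0.094 (SE 0.15, adjusted p = 0.655).

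Ripk2 (ENSMUSG00000041135, chromosome 4, 16122733 to 16163647, minus strand), the kinase that the bacterial sensors NOD1 and NOD2 use to reach NF-kB, showed the widest gap between treated genotypes. It had 160 and 174 CPM in dKO with cytokines, 43.7 and 38.7 CPM in dKO without, 733 and 631 CPM in WT with cytokines and 37.8 and 42.3 CPM in WT without. Untreated libraries of both genotypes overlapped, and both treated dKO libraries were far below both treated WT libraries. Cytokines raised it 4.05-fold in dKO (log2 fold change 2.02, SE 0.13, adjusted p = 0.00407) and 17.01-fold in WT (log2 fold change 4.09, SE 0.14, adjusted p = 0.000536). Under cytokines it was 4.09-fold lower in dKO than in WT (log2 fold change -2.03, SE 0.13, adjusted p = 0.000883), a call kept without each of the 8 libraries in turn. Without cytokines the log2 fold change of dKO over WT was 0.039 (SE 0.13, adjusted p = 0.842).

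Zc3h12a (ENSMUSG00000042677, chromosome 4, 125118423 to 125127840, minus strand), the Regnase-1 gene, was higher in dKO cells under both treatments. Levels were 276 and 192 CPM in dKO with cytokines, 114 and 89.2 CPM in dKO without, 100.1 and 96.1 CPM in WT with cytokines and 46.0 and 47.6 CPM in WT without. Untreated dKO libraries straddled the treated WT ones, and both treated dKO libraries were above every other library. It was 2.17-fold higher in dKO than in WT without cytokines (log2 fold change 1.12, SE 0.19, adjusted p = 0.012) and 2.39-fold higher with them (log2 fold change 1.25, SE 0.19, adjusted p = 0.00603). The response to cytokines was 2.30-fold in dKO (adjusted p = 0.0238) and 2.10-fold in WT (adjusted p = 0.0156). Il6, whose mRNA Regnase-1 is known to cut, averaged 1314 ± 336 CPM in dKO with cytokines, 65.7 ± 14.0 CPM in dKO without, 84.1 ± 23.9 CPM in WT with cytokines and 6.48 ± 1.96 CPM in WT without (SD, n = 2 each). Both transcripts were higher in dKO, and a link between them was not tested. Of 24 tested NF-kB response genes of endothelium, only Il6 was higher in dKO than in WT under cytokines, and 7 were lower.

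Of the 3 genes whose names record induction by TNF, Tnfaip3 is given above and did not pass between genotypes, while Tnfaip2 and Tnfaip8 had the largest differences of the 9 between untreated dKO and WT cells. Tnfaip2 (ENSMUSG00000021281, chromosome 12, 111442469 to 111455018, plus strand) encodes M-Sec, a protein related to exocyst subunits that shapes membrane protrusions. It stood at 3028 and 2050.0 CPM in dKO with cytokines, 531 and 479.6 CPM in dKO without, 1761 and 1337 CPM in WT with cytokines and 80.4 and 62.2 CPM in WT without. All groups were separate, in the order treated dKO, treated WT, untreated dKO, untreated WT. It was 7.09-fold higher in untreated dKO than in untreated WT cells (log2 fold change 2.83, SE 0.26, adjusted p = 0.00229), and the untreated dKO mean was 32.6% of the treated WT mean. With cytokines the log2 fold change of dKO over WT was 0.71 (SE 0.24, adjusted p = 0.0609), which passed in DESeq2 (adjusted p = 0.0207). It ran from 0.40 to 0.97 over the 8 refits that each left out 1 library. The rise with cytokines was 5.02-fold in dKO (adjusted p = 0.00968) and 21.7-fold in WT (adjusted p = 0.0011). Of its exon bases, 314 (6.3%) are shared with Gm40578 on the other strand, and the strand setting of the counting is not given in the sources used here. The other 8 genes shared none with a gene at 1 CPM or more.

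Tnfaip8 (ENSMUSG00000062210, chromosome 18), the founding gene of a family of lipid-binding regulators of cell survival, was likewise higher in dKO cells. It stood at 164 and 120.2 CPM in dKO with cytokines, 60.1 and 51.8 CPM in dKO without, 59.1 and 38.8 CPM in WT with cytokines and 9.38 and 9.14 CPM in WT without. Untreated dKO and treated WT libraries overlapped, the untreated dKO mean being 114% of the treated WT mean, and all other groups were separate. It was 6.04-fold higher in dKO than in WT without cytokines (log2 fold change 2.59, SE 0.25, adjusted p = 0.00269) and 2.91-fold higher with them (log2 fold change 1.54, SE 0.23, adjusted p = 0.00613). Both calls were kept without each of the 8 libraries in turn. Cytokines raised it 2.54-fold in dKO (adjusted p = 0.0298) and 5.28-fold in WT (adjusted p = 0.00363).

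The comparison of cytokine-treated with untreated cells addresses the inflammatory response of each genotype. In dKO cells 8 of the 9 genes rose and 0 fell, where 5.55% of all tested genes changed, 3.5% rising and 2.06% falling. In WT cells 8 of the 9 rose and 0 fell, where 17.4% of all tested genes changed, 9.72% rising and 7.69% falling. Cyld was the exception in both. Treated libraries did not overlap untreated ones, and were higher, for 8 of the 9 genes in dKO, against 49.5% of all tested genes (24.7% higher, 24.8% lower), and for 9 of the 9 in WT, against 68.2% (34.3% higher, 33.9% lower). The median log2 fold change of the 9 was 1.90 in dKO and 2.40 in WT, beside -0.010 and -0.0098 over all tested genes. The genes were chosen with results of these data known, and Tnip3 passed the filter through its treated libraries, so the counts are a description. Libraries of the same number, compared within a genotype, gave folds that varied little for some genes and much for others. Tnfaip2 rose 5.70 and 4.27 times in dKO replicates 1 and 2 and 21.9 and 21.5 times in WT replicates 1 and 2, while Tnip1 rose 4.94 and 3.09 times in dKO and 3.55 and 2.98 times in WT.

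Several calls depended on which libraries were fitted. On all 8 libraries, the 8 calls in dKO and the 8 in WT were kept in DESeq2. They were also kept with the replicate number as a block inside each genotype. The refits below had no such block. When the 4 dKO libraries alone were fitted, 0 of the 9 genes passed in dKO (adjusted p from 0.0799 for Ripk2 to 0.549 for Cyld), and 1 of all tested genes did, while 8 of the 9 remained called in WT on its own 4 libraries. Leaving out 1 library left between 4 and 7 genes called in dKO and between 5 and 8 in WT. Tnfaip3, Birc3 and Ripk2 were called in both genotypes in each of these 8 refits, and Tnfaip2 in all but the one without untreated dKO replicate 1 (adjusted p = 0.0539 in dKO). Zc3h12a was called in 1 of the 8 in dKO and in 4 of the 8 in WT, Tnip1 in 2 and 4, Tnip3 in 2 and 6, and Tnfaip8 in 3 and 8. In WT, Tnip1 and Zc3h12a were lost without any 1 of the 4 WT libraries (adjusted p up to 0.116 and 0.111), and Tnip3 without either untreated WT library (up to 0.0642). In dKO, Zc3h12a was lost without any library but treated dKO replicate 2 (up to 0.0663), Tnip1 without any but the untreated dKO ones (up to 0.0789) and Tnip3 without any but the treated dKO ones (up to 0.132). Tnfaip8 was lost there without any untreated library or treated dKO replicate 1 (up to 0.114).

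**Figure D2:**
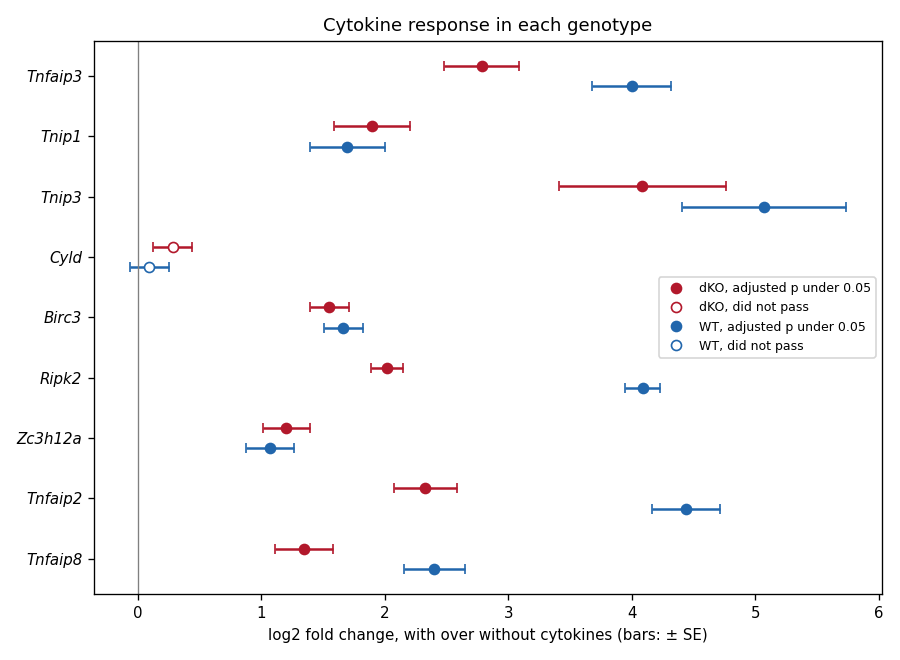
Log2 fold change of each gene with over without cytokines, in dKO (red) and WT (blue), with bars of ± SE; filled points have an adjusted p under 0.05. Tnfaip3, Ripk2, Tnfaip2 and Tnfaip8 lie further right in WT, as does Tnip3, whose bars overlap. Tnip1, Birc3 and Zc3h12a lie at like values in both genotypes, and Cyld lies near 0.

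Whether the response itself differed between genotypes was tested as an interaction, dKO response minus WT response. In edgeR 0 of the 9 genes passed, and 0% of all 15698 tested genes did. At an unadjusted p under 0.05 there were 4 of the 9 and 1683 of all genes, and DESeq2 called 2 of the 9 and 372 of all. Ripk2 had the smallest unadjusted p of all tested genes, with a response lower in dKO by 2.07 on the log2 scale (interaction -2.07, SE 0.18, adjusted p = 0.1). Tnfaip2 had an interaction of -2.11 (SE 0.34, adjusted p = 0.182), Tnfaip3 of -1.21 (SE 0.40, adjusted p = 0.373) and Tnfaip8 of -1.06 (SE 0.33, adjusted p = 0.34). With the replicate number as a block inside each genotype, these 4 genes passed and the other 5 did not. The adjusted p was then 0.00185 for Ripk2, 0.00185 for Tnfaip2, 0.00437 for Tnfaip3 and 0.0258 for Tnfaip8, and 947 of all genes passed. DESeq2 called Ripk2 (adjusted p = 3.19e-16) and Tnfaip2 (adjusted p = 1.69e-06). The remaining interactions were 0.20 (SE 0.42) for Tnip1, -0.98 (SE 1.01) for Tnip3, -0.11 (SE 0.21) for Birc3, 0.14 (SE 0.27) for Zc3h12a and 0.19 (SE 0.22) for Cyld.

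The comparison of dKO with WT cells addresses the effect of the deletion at rest and under inflammation. Without cytokines Tnfaip2, Tnfaip8 and Zc3h12a were higher in dKO and 0 of the 9 were lower, where 13.4% of all tested genes were higher and 9.66% lower. With cytokines Tnfaip8 and Zc3h12a were higher and Ripk2 was lower, where 18.6% of all tested genes were higher and 15.4% lower. The 3 of 9 called under each treatment are near the shares of all genes called, 34% with cytokines and 23% without. Libraries did not overlap for 5 of the 9 without cytokines, 4 higher and 1 lower in dKO, against 70% of all genes (35.9% higher, 34.1% lower), and for 8 of the 9 with them, 3 higher and 5 lower, against 73.5% (37.2% higher, 36.2% lower). The median log2 fold change of the 9 was 0.056 without and -0.094 with cytokines, beside 0.017 and 0.010 over all tested genes. The Zc3h12a call without cytokines was lost without untreated dKO replicate 1 (adjusted p = 0.0544), WT replicate 1 (0.0888) or WT replicate 2 (0.0779). Leaving out both dKO replicate 2 libraries left 1 library in each dKO group, so that refit shows no spread between dKO libraries.

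**Figure D3:**
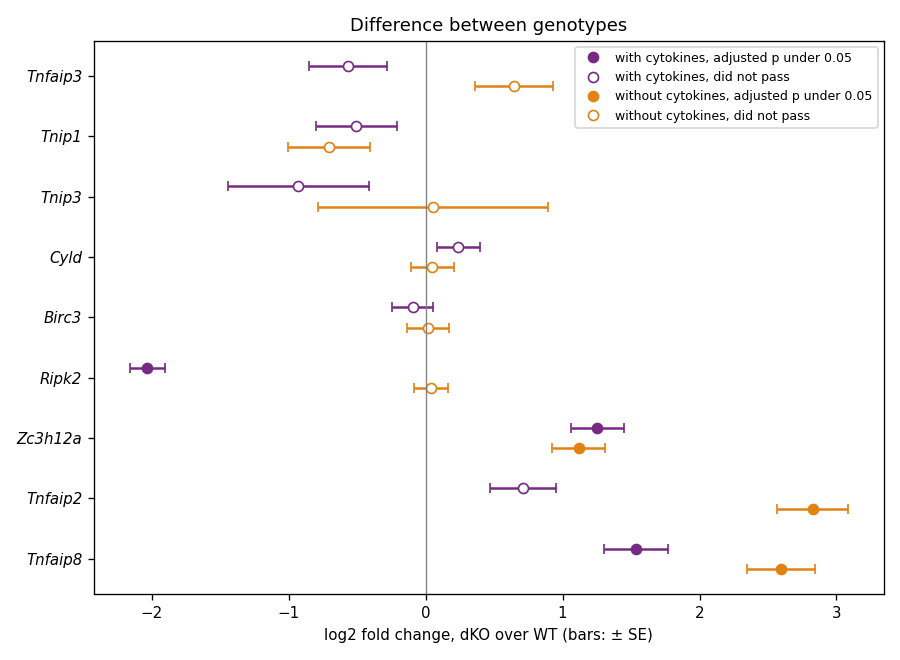
Log2 fold change of each gene in dKO over WT cells, with (purple) and without (orange) cytokines, with bars of ± SE; filled points have an adjusted p under 0.05. Ripk2 is at -2.03 with cytokines and near 0 without, Tnfaip2 and Tnfaip8 are furthest right without cytokines, and Tnfaip3 lies on opposite sides of 0 under the 2 treatments, with open points.

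Levels of different genes were compared per kb of exon, as CPM divided by the merged exon length. In treated dKO cells Tnfaip2 led with 509 ± 139 CPM per kb, then Tnip1 with 309 ± 42.4, and Zc3h12a, Tnfaip3, Ripk2 and Birc3 followed between 81.2 and 49.9 (SD, n = 2). In that order the libraries of Zc3h12a overlapped those of Tnfaip3, and those of Tnfaip3 overlapped those of Ripk2, while Ripk2 and Birc3 were apart. Untreated dKO cells had Tnfaip2 at 101 ± 7.33 and Tnip1 at 82.9 ± 37.5 CPM per kb, with overlapping libraries. In treated WT cells Tnip1 led with 438 ± 4.87 CPM per kb, then Tnfaip2 with 311 ± 60.2, Ripk2 with 242 ± 25.7 and Tnfaip3 with 111 ± 24.7, each apart from the next. Untreated WT cells had Tnip1 at 135 ± 15.0 CPM per kb, far above Birc3, Zc3h12a, Tnfaip2 and Ripk2 between 16.8 and 14.2, each of which overlapped the next in that order. Tnip3 was last in each of the 4 groups, at 0.396 CPM per kb or less.

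**Figure D4:**
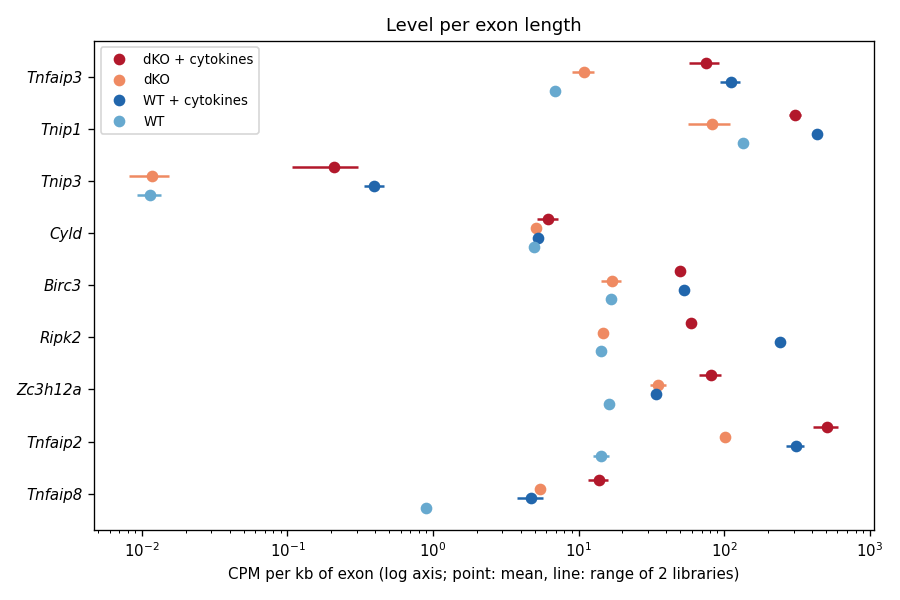
Level of each gene as CPM per kb of exon on a log axis, in the 4 groups; points are means and lines span the 2 libraries. Tnip1 or Tnfaip2 is highest in each group and Tnip3 lowest, and the dKO points of Tnfaip2, Tnfaip8 and Zc3h12a lie right of the WT points of the same treatment.

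Among themselves, the 9 genes were most alike in Tnip1 and Birc3, whose log2 CPM, centred on each gene's own mean over the 8 libraries, differed by 0.37 (root mean square). Over all tested genes at a mean of 10 CPM or more, the nearest to Tnip1 were Traf1 (0.11), an adaptor of TNF receptors, and Nfkbie (0.18), which encodes an inhibitor of NF-kB. Nfkb2 (0.14), an NF-kB subunit gene, was nearest to Birc3. The nearest to Tnfaip3 was the chemokine gene Cx3cl1 (0.34), and the nearest to Tnfaip2 the chemokine gene Ccl7 (0.32). Ripk2 lay nearest to Gbp6 (0.31), an interferon-inducible GTPase gene, then to Papss2 (0.35), which encodes an enzyme of sulfate activation, and to Gbp2 (0.46). Zc3h12a lay nearest to the integrin gene Itgav (0.18) and the matrix protease gene Mmp14 (0.19), and Cyld to Arhgap21 (0.043). These distances describe 8 libraries in 4 groups and carry no test.

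Other genes of the pathway were listed by role, 116 genes in 7 lists, of which 110 were tested. Of all tested genes, 3.5% rose and 2.06% fell with cytokines in dKO, and 9.72% rose and 7.69% fell in WT. In dKO over WT, 13.4% were higher and 9.66% lower without cytokines, and 18.6% higher and 15.4% lower with them. These shares stand beside the counts of every list below, and the counts are a description. Of 16 further genes of the A20, CYLD and linear ubiquitin machinery, 0 rose or fell with cytokines in dKO and 3 rose in WT, with a median log2 fold change of 0.17 in dKO and 0.017 in WT. The 3 were Optn (2.44-fold), a ubiquitin-binding adaptor gene, Rnf31 (1.83-fold), which encodes the catalytic subunit of the linear ubiquitin ligase, and Spata2 (1.37-fold), whose product links CYLD to that ligase. Between genotypes, 2 were higher and 3 lower in dKO without cytokines, and 1 higher and 5 lower with them. Tax1bp1, an A20 adaptor gene, was lower in dKO under both treatments (1.75-fold without and 1.57-fold with cytokines), and Tnip2, the ABIN2 gene, was higher (1.66-fold and 1.597-fold).

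Of 27 receptor and proximal signalling genes, 5 rose and 1 fell with cytokines in dKO, and 7 rose and 1 fell in WT, with a median log2 fold change of -0.051 in dKO and 0.19 in WT. Birc2, which encodes cIAP1 beside cIAP2, rose 2.21-fold in dKO and 3.08-fold in WT, and Traf1 rose 3.66-fold and 3.45-fold. In dKO over WT without cytokines 7 were higher and 2 lower, among them Tnfrsf1b, the gene of the second TNF receptor, 3.80-fold higher, and Il1rap, the gene of the IL-1 co-receptor, 2.33-fold higher. With cytokines 4 were higher and 7 lower, with Tnfrsf1b 3.30-fold higher and the adaptor gene Myd88 1.87-fold lower. Of 16 genes for the IKK complex, NF-kB subunits and IkB proteins, 9 rose in dKO and 11 in WT and 0 fell, with a median log2 fold change of 0.81 in dKO and 1.01 in WT. Nfkbie rose 4.07-fold in dKO and 4.05-fold in WT. Between genotypes, 2 were higher and 3 lower in dKO without cytokines, and 1 higher and 9 lower with them, where the median was -0.42 and Nfkbib was 2.13-fold lower.

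Of the genes of the 2 sensors upstream of RIPK2, Nod2 was lower in dKO than in WT cells and Nod1 passed none of the 5 tests. Nod2 averaged 10.1 ± 1.85 CPM in dKO with cytokines, 1.66 ± 0.646 CPM in dKO without, 85.5 ± 25.6 CPM in WT with cytokines and 5.27 ± 0.458 CPM in WT without (SD, n = 2 each). It was 8.51-fold lower in dKO than in WT with cytokines (adjusted p = 0.00236) and 3.15-fold lower without (adjusted p = 0.019). Nod1 averaged 421 ± 82.9 CPM in dKO with cytokines, 378 ± 29.4 CPM in dKO without, 421 ± 71.9 CPM in WT with cytokines and 426 ± 26.1 CPM in WT without, and the 4 groups overlapped except that both untreated dKO libraries lay below both untreated WT ones. Of the 7 tested genes of that list, 2 rose and 1 fell in each genotype with cytokines, 0 were higher and 1 lower in dKO without them, and 1 was higher and 3 lower in dKO with them. Slc15a3, which encodes a transporter that delivers NOD ligands, rose 4.42-fold in dKO and 5.41-fold in WT.

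Of 13 mRNA decay genes related to Zc3h12a, 3 rose in dKO and 4 in WT with cytokines and 0 fell. Malt1, the gene of a protease that cleaves Regnase-1, rose 5.29-fold in dKO and 7.98-fold in WT, and Zfp36, which encodes the decay factor tristetraprolin, 1.88-fold and 3.86-fold. In dKO over WT, 1 was higher and 3 lower without cytokines, and 2 higher and 2 lower with them. Rc3h1, which encodes Roquin-1, a partner of Regnase-1 in mRNA decay, was lower in dKO under both treatments (1.48-fold without and 1.75-fold with cytokines). Of 7 tested genes related to Tnfaip8 or Tnfaip2, 2 rose in each genotype and 0 fell. Exoc3l4, a relative of Tnfaip2, rose 9.46-fold in WT, and in dKO over WT it was 2.72-fold higher without cytokines (adjusted p = 0.0357). With cytokines its mean was lower in dKO, at 19.7 CPM against 34.1 CPM in WT. In this list 1 was higher and 2 lower in dKO under each treatment. The higher one was Exoc3l4 without cytokines and Exoc3 with them. Among the lower ones, Ralb, the gene of a small GTPase that controls the exocyst, was 2.02-fold lower without and 2.57-fold lower with cytokines.

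Among 24 tested NF-kB response genes of endothelium, 12 rose and 0 fell in dKO, and 21 rose and 1 fell in WT, with a median log2 fold change of 2.38 in dKO and 3.03 in WT. Ptgs2, the gene of inducible cyclooxygenase, rose 56.6-fold in dKO and 42.1-fold in WT. Under cytokines 1 was higher in dKO than in WT and 7 were lower. The higher one was Il6, 15.6-fold. Among the lower ones, the chemokine gene Cxcl10 had 1.45 and 1.68 CPM in dKO with cytokines, against 500.3 and 127 CPM in WT with cytokines, so the size of its difference depends on the WT library. Tnfsf10, the gene of the death ligand TRAIL, had 3.50 and 11.8 CPM in dKO with cytokines, against 279 and 139 CPM in WT with cytokines. Without cytokines 3 were higher and 2 lower in dKO, with Cxcl5 11.9-fold higher and Tnfsf10 among the lower ones.

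**Figure D5:**
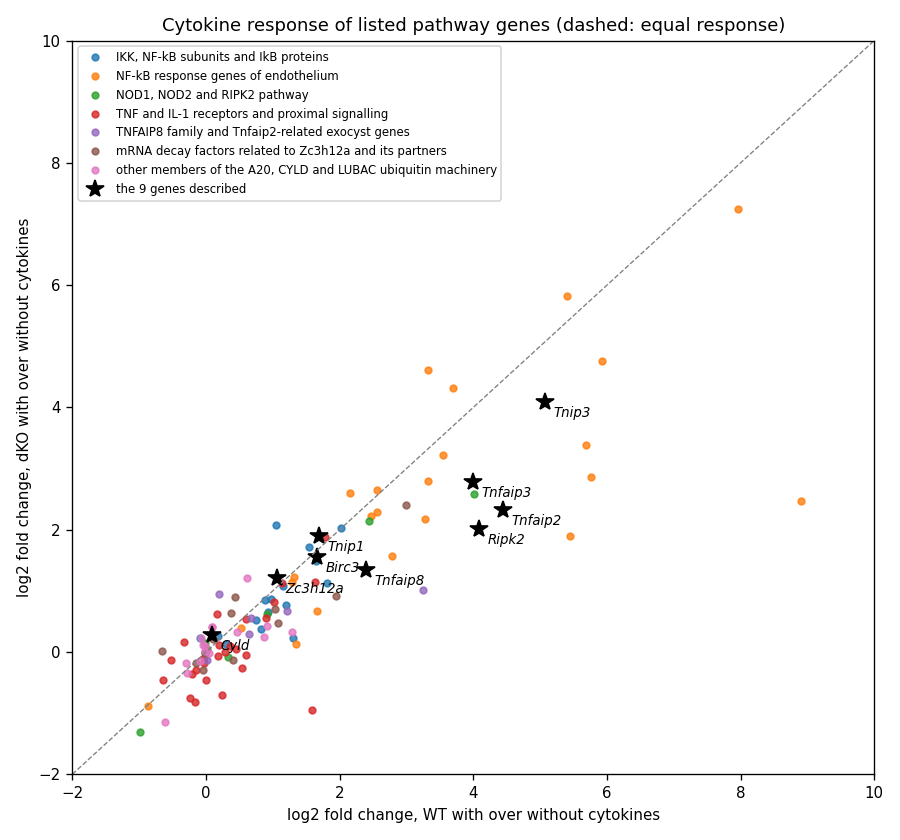
Log2 fold change with over without cytokines in dKO (vertical) against WT (horizontal) for the 110 tested genes of the 7 lists, coloured by list, and for the 9 genes described (black stars); the dashed line marks an equal response. Tnip1, Birc3 and Zc3h12a lie near the line, Ripk2, Tnfaip2, Tnfaip3, Tnip3 and Tnfaip8 below it, and Cyld near the origin.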

How the data were processed

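The authors deposited raw counts of reads for each Ensembl gene in 8 libraries. STAR 2.7.6a, FastQC 0.11.5 and GRCm38 are named in the submitters' processing notes, with no role stated. For counting, the program, annotation release and strand setting were not given in the sources used here, and per the labels' protocols either an unstranded or a stranded kit was used.

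In R 4.3.3, edgeR 4.0.16 scaled libraries by TMM, dropped genes of low count (filterByExpr) and fitted all 8 libraries by robust quasi-likelihood, a coefficient for each group, which left 4 residual degrees of freedom. Common biological variation (BCV) was 24.3%. Two-sided tests were judged at 0.05 after Benjamini-Hochberg adjustment in each of 5 contrasts. An SE is the log2 fold change divided by the root of the F statistic. Scripts were tested on simulated data. Alternatives were DESeq2 1.42.0, its type of size factors in edgeR, no filter, only the libraries compared, the replicate number as a block, and fits without a library or without both dKO replicate 2 libraries.

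The genes, lists, alternatives and naming rule were chosen with earlier results of these data known. Named genes were the 9, Erg and Fli1, up to 3 per list and contrast, and the 3 nearest patterns per gene (log2 of CPM plus 0.5); Il6, Nod2 and markers are given for context, and some were picked with their values in view. Some genes that the rule names are left out. Deviations of same-numbered libraries from their group means correlated at 0.506 in WT and 0.743 in dKO, and at 0.0522 to 0.165 across genotypes, so numbers were taken to pair libraries within a genotype only. The block was nested in genotype for cytokines and the interaction, and was a number shared across genotypes, as an alternative alone, for dKO over WT. Symbols were found for 52403 of 52636 identifiers, coordinates and exon lengths are from GENCODE M21 on GRCm38, and promoter windows from RefSeq.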

Additional observations from a re-analysis of the deposited data

How the results depend on the processing

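With size factors of the DESeq2 type in edgeR, all 5 counts of called genes among the 9 were the same. DESeq2 itself called 2 genes in the interaction, and edgeR without the filter 1, against 0. Fitting only the libraries compared called 0 genes for cytokines in dKO, against 8. With the replicate number as a block within each genotype, 4 genes passed in the interaction, against 0, and no call for cytokines in either genotype changed. For dKO over WT the block could only be the number shared across genotypes, although same-numbered libraries correlated at 0.165 or less there. With it, 4 genes passed without cytokines, against 3, adding Tnfaip3 (log2 0.63, adjusted p = 0.0172), and 5 with cytokines, against 3, adding Tnfaip3 (log2 -0.58, adjusted p = 0.0155) and Tnfaip2 (adjusted p = 0.00986). The refit without both dKO replicate 2 libraries kept 1 library in each dKO group. Calls in it rest on the spread between WT libraries alone. Leaving out 1 library gave 2 to 4 called genes in dKO over WT without cytokines, 3 to 6 with them, 5 to 8 for cytokines in WT, 4 to 7 in dKO and 0 to 1 in the interaction. A refit without a library leaves 1 group with a lone sample, which is assumed to vary like the others.

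Signs turned in 9 results, of which 0 had passed. Without 1 library, log2 values ran from -0.23 to 0.22 for Birc3, -0.046 to 0.13 for Cyld, -0.061 to 0.12 for Ripk2 and -0.45 to 0.40 for Tnip3 in dKO over WT without cytokines, and from -0.021 to 0.46 for Cyld with cytokines. In the interaction they ran from -0.30 to 0.14 for Birc3, -0.070 to 0.43 for Cyld, -0.18 to 0.76 for Tnip1 and -0.15 to 0.39 for Zc3h12a. Birc3 without cytokines was -0.0035 in DESeq2, -0.0018 without the filter and -0.25 without both dKO replicate 2 libraries, where Tnip3 was -0.46 and the Birc3 interaction 0.19. The cause of these shifts was not tested. Counts over all genes moved more. For cytokines in dKO there were 872 calls, 1738 in DESeq2, 3769 with the block, 1 with only the libraries compared, 1339 without both dKO replicate 2 libraries and 130 to 731 without 1 library. For cytokines in WT there were 2733, 4585 with only the libraries compared, 5943 with the block, 4417 without both dKO replicate 2 libraries and 413 to 2749 without 1 library. In dKO over WT there were 3617 without cytokines, 2266 with only the libraries compared, 5602 without both dKO replicate 2 libraries and 527 to 3783 without 1 library, and with cytokines 5343 and 1621 to 5523 without 1 library. In the interaction there were 0, 372 in DESeq2, 75 without the filter, 947 with the block, 193 without both dKO replicate 2 libraries and 0 to 41 without 1 library. With 2 libraries a group, small differences such as those of Birc3 and Cyld were not resolved.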

Other observations

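In both genotypes the replicate 1 libraries had more Tnfaip3, Tnfaip2, Tnfaip8 and Cyld than replicate 2, with and without cytokines. Treated Tnip3 and untreated Tnip1 were lower in replicate 1 than in replicate 2 in both genotypes. In dKO the 10 endothelial markers summed to 1469 and 1557 CPM in replicate 1 with and without cytokines, against 2339 and 3004 CPM in replicate 2. The 11 stromal markers there summed to 17510 and 15773 CPM in replicate 1, against 14603 and 12906 CPM in replicate 2. Erg was also lower in dKO replicate 1, at 34.7 and 40.1 CPM, against 90.2 and 91.3 CPM in replicate 2. The part of these differences in the levels of the 9 genes was not tested.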
